A study of Mus musculus with 6 samples.

Results

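Muscle atrophy ubiquitin ligases and the FoxO factors that switch them on were read out in the gastrocnemius, a mixed hindlimb muscle of the mouse. The members were the 10 genes Fbxo32, Trim63, Trim54, Trim55, Fbxo30, Fbxo40, Asb2, Foxo1, Foxo3 and Tnfrsf12a, taken by symbol from a table of 74693 features, of which 17034 had values. All 10 had values and all 10 passed the filter on low counts that left 13118 genes for testing. None of the 10 had a fractional count in any library, so none showed reads shared with another feature.

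All 6 mice were males aged 8 weeks, and in all of them Thra, which encodes thyroid hormone receptor alpha, was floxed. The 3 mice labelled TRa_mKO also carried the Myf5-Cre transgene, which acts from embryonic myogenesis. The 3 WT littermates (Thrafl/fl) had no Cre, so Cre itself differs between the groups too. No drug or diet was given, and the labels place all libraries in batch 1.

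Muscle loses protein largely through the ubiquitin-proteasome system, in which a ubiquitin ligase picks the substrate. Fbxo32 (atrogin-1) and Trim63 (MuRF1) are the classical ligases of atrophy: both transcripts rise in fasting, denervation and glucocorticoid excess. Foxo1 and Foxo3 drive them when Akt, the kinase downstream of insulin and IGF-1, no longer keeps these factors out of the nucleus. Transcript counts do not measure that phosphorylation.

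The sequence just before the start of 4 members is shown because these are the 4 members with an unadjusted p below 0.05. The RefSeq promoter table (GRCm38.p6) held 8 of the 10 members, without Fbxo32 and Trim55. Each line gives 250 bases, 5′ to 3′ on the gene's strand, ending at the base before the start. The windows are chr4:134314870-134315119 (plus strand) for Trim63, chr5:31116362-31116611 (plus strand) for Trim54, chr16:36990468-36990717 (minus strand, the first of its pair of starts) for Fbxo40 and chr17:23677450-23677699 (minus strand) for Tnfrsf12a. Capitals mark matches on either strand to the FoxO motif GTAAACA, the glucocorticoid receptor palindrome (GAACA, any 3 bases, TGTTC), the E-box CAGCTG of myogenic factors and the nuclear receptor half-site AGGTCA.
Trim63: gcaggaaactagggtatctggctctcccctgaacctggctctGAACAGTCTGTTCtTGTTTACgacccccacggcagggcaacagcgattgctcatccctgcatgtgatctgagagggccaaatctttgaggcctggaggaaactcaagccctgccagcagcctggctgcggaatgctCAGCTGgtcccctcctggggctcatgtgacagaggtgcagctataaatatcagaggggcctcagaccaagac
Trim54: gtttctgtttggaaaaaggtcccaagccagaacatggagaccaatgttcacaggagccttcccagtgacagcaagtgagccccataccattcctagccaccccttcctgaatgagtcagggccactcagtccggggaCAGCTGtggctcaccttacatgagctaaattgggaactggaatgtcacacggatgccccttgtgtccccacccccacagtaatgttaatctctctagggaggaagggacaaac
Fbxo40: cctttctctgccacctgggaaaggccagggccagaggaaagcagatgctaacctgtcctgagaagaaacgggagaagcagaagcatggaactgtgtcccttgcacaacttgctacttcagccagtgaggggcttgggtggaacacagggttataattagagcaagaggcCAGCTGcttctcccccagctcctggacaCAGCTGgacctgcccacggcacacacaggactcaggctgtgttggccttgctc
Tnfrsf12a: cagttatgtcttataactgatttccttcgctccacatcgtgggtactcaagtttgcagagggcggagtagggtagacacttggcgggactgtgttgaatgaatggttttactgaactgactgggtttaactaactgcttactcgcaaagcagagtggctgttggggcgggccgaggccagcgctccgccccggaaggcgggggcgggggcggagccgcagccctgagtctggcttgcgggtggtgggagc

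The Trim63 window held the palindrome, starting 208 bases before the start, with the FoxO motif directly downstream at 194 bases and no overlap between them. Among 32851 promoter windows of the same length, 0.0396% held the palindrome (13 windows) and 3.17% held the FoxO motif. An E-box, present in 13% of all windows, was found once in the Trim63 and Trim54 windows and 2 times in the printed Fbxo40 window. The half-site, present in 14% of all windows, was in none of the printed ones, but occurred 2 times in the window of the other Fbxo40 start, at 105 and 47 bases before it. The Tnfrsf12a window held none of the 4 motifs. A match is a description of letters, not a bound site.

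Library totals lay between 12390521 and 14488494 rounded counts. The 8 skeletal muscle markers summed to 92580 to 123800 CPM in WT and 118200 to 134500 CPM in the libraries labelled TRa_mKO, where CPM are counts per 1000000 counts of a library, scaled with TMM factors. Thra itself was no lower in TRa_mKO: the WT libraries gave 78.8, 92.8 and 96.9 CPM and the TRa_mKO libraries 129, 118 and 101 CPM (log2 fold change 0.37, SE 0.12, adjusted p = 0.117). That count adds all exons of a gene that shares reads with other features, so every direction here rests on the labels. The sum of 4 haemoglobin genes stood apart in WT replicate 1 (1742 CPM) and TRa_mKO replicate 3 (1599 CPM), against 453 to 907 CPM in the other libraries. Muscle is a mixture of cells, and fewer cells of a type cannot be told apart from less RNA per cell.

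In muscle labelled TRa_mKO, no atrophy ligase or FoxO gene was called higher. Rises were not excluded, as the 95% confidence intervals of Fbxo32 and Foxo3 reached 1.95-fold and 1.78-fold. Trim54 (MuRF3) and Tnfrsf12a, the receptor of the cytokine TWEAK, fell 1.41-fold and 1.75-fold, while the classical ligase Fbxo32 averaged 207 ± 76.7 CPM in WT and 202 ± 85.6 CPM in TRa_mKO (SD, n = 3 each). Trim63 and Fbxo40 averaged 1.56-fold and 1.21-fold higher in WT without passing. Of the 10 members 2 were called lower, against 1.65% of all genes tested (216 of 13118), and 0 higher, against 2.52% (331); in either direction the share over all genes was 4.17%. At an unadjusted p below 0.05 there were 4 lower members (7.72% of all genes) and 0 higher (10.2%). DESeq2 and limma-voom also called 0 members higher and 2 lower. The lower count fell to 0 or 1 with a library left out, to 1 with the replicate block and to 0 without both haemoglobin-rich libraries. The median log2 fold change was -0.12 over the members and 0.00 over all genes tested. With library sizes alone, all genes split into 213 higher and 255 lower, and the members again into 0 and 2.

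**Figure D1:**
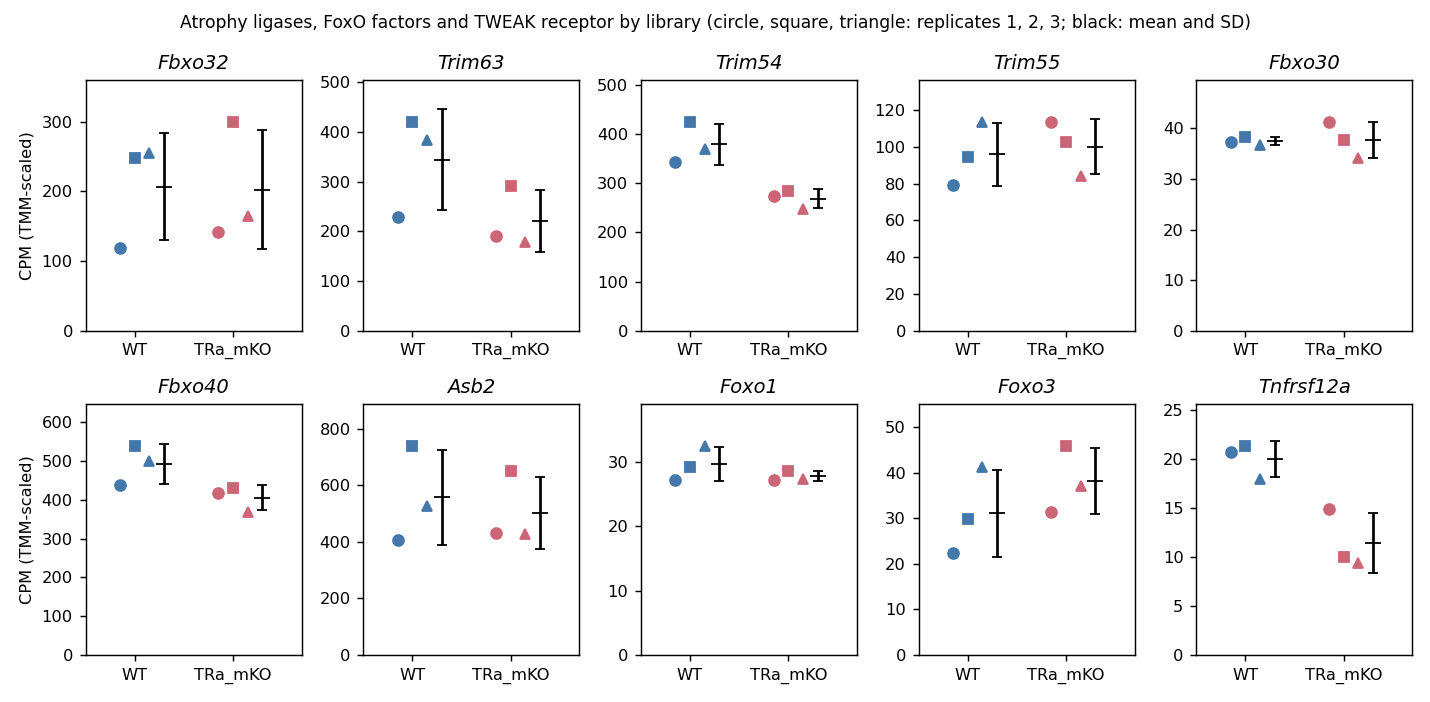
Level of each member in CPM (TMM-scaled, axis from 0) in the 3 WT and 3 TRa_mKO libraries; circles, squares and triangles are replicates 1, 2 and 3, and black marks are the mean and SD. The genotypes do not overlap for Trim54, Fbxo40 and Tnfrsf12a, and overlap for the other members. Of all genes tested, 10.1% had libraries of the genotypes apart in the lower direction and 23.2% in either.

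Levels among the members can be set side by side per length, as CPM per kilobase of the longest GENCODE transcript. In WT the order ran from Trim54 (265 ± 29.4), Asb2 (208 ± 62.7) and Trim63 (183 ± 54.2) through Fbxo40 (95.8 ± 9.97), Trim55 (36.9 ± 6.65), Fbxo32 (29.6 ± 11) and Tnfrsf12a (20.3 ± 1.84) to Fbxo30 (7.40 ± 0.154), Foxo3 (4.55 ± 1.39) and Foxo1 (3.42 ± 0.305). The order of the means was identical in TRa_mKO. The WT libraries of the neighbours Trim54 and Asb2, Asb2 and Trim63, Trim55 and Fbxo32, Fbxo32 and Tnfrsf12a, and Foxo3 and Foxo1 overlapped, so these neighbours are not ranked beyond their spread. On this scale Trim54 lay at the 98.6th percentile of tested genes in WT and Foxo1 at the 34.6th. The long transcript assumed for Fbxo32 (6976 bases) lowers its place in this order.

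The MuRF proteins are RING-type ligases of the sarcomere that bind each other and titin. Trim54 encodes MuRF3, which associates with microtubules and the contractile apparatus. It stood at 344, 426 and 370 CPM in the WT libraries and at 275, 284 and 248 CPM in those labelled TRa_mKO. All WT libraries were above all TRa_mKO libraries. The fall was -0.50 on the log2 scale (SE 0.11, 95% confidence interval -0.75 to -0.25), with an adjusted p of 0.039 (edgeR quasi-likelihood test, Benjamini-Hochberg over all genes). The 8 muscle markers summed to 105633 ± 16252 CPM in WT and 124299 ± 8887 CPM in TRa_mKO, with 0 of 8 called. With a library left out, Trim54 still passed without WT replicate 1 (adjusted p = 0.0384). It did not pass without WT replicate 2 (0.132) or 3 (0.0707), without TRa_mKO replicate 1 (0.0618), 2 (0.11) or 3 (0.109), or without both haemoglobin-rich libraries (0.103), with log2 fold changes from -0.57 to -0.41 in these fits.

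Trim63, the MuRF1 gene whose product targets thick-filament proteins, stood at 228, 421 and 383 CPM in the WT libraries and at 191, 291 and 178 CPM in those labelled TRa_mKO. WT replicate 1 lay below TRa_mKO replicate 2, so the groups overlapped. A log2 fold change of -0.64 with SE 0.27 and a 95% confidence interval from -1.28 to -0.01 missed the threshold (adjusted p = 0.272). Its value was -0.88 without WT replicate 1 (adjusted p = 0.0679), -0.91 without TRa_mKO replicate 2 (0.155) and -0.47 without WT replicate 2 (0.494). Trim55 encodes MuRF2, a ligase that binds the titin kinase region. It stood at 79.4, 94.3 and 114 CPM in the WT libraries and at 114, 103 and 84.4 CPM in those labelled TRa_mKO. The ranges nearly coincide, and the interval of the log2 fold change (0.06, SE 0.15, adjusted p = 0.882) ran from -0.27 to 0.39.

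The balance within the MuRF family was examined after the values had been seen. For every 100 counts of Trim54 there were 23.1, 22.1 and 30.8 counts of Trim55 in WT and 41.4, 36.0 and 34.0 in TRa_mKO. This ratio needs neither a scaling factor nor a transcript length, and its groups did not overlap. The mean log2 ratio was -2.00 ± 0.258 in WT and -1.43 ± 0.145 in TRa_mKO, a difference of 0.56. Because the pair was picked for these values, which restate the fall of Trim54 beside Trim55, the difference is a description only. An exact permutation test gave p = 0.1, the smallest value 3 libraries per genotype allow, so it could not decide. Per length, Trim55 made up 7.68% ± 1.09 of the MuRF family in WT and 11.3% ± 1.53 in TRa_mKO. The shares of Trim54 (55.2% ± 5.33 and 55% ± 3.89) and Trim63 (37.1% ± 5.33 and 33.7% ± 4.99) overlapped between the genotypes.

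F-box proteins bring substrates to cullin 1 ligases. Fbxo32, whose described substrates include MyoD and the translation factor eIF3f, stood at 118, 247 and 255 CPM in the WT libraries and at 142, 300 and 165 CPM in those labelled TRa_mKO. Each genotype held both low and high libraries. The log2 fold change was -0.03 (SE 0.40, adjusted p = 0.979), and its 95% confidence interval, -1.03 to 0.96, held ratios from 0.491 to 1.95. Its sign turned when WT replicate 2 (0.12) or 3 (0.14), or TRa_mKO replicate 1 (0.17) or 3 (0.10), was left out.

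Fbxo40, a muscle-restricted ligase of the insulin receptor substrate IRS1, stood at 438, 539 and 500 CPM in the WT libraries and at 418, 430 and 369 CPM in those labelled TRa_mKO. The libraries of the genotypes were apart, as were those of 10.1% of all genes in the lower direction and 23.2% in either. A log2 fold change of -0.28 with SE 0.12 and a 95% confidence interval from -0.54 to -0.02 missed the threshold (adjusted p = 0.235; 0.137 to 0.514 over the alternatives). Fbxo30 (MUSA1), a ligase that BMP signalling holds down, stood at 37.4, 38.3 and 36.7 CPM in the WT libraries and at 41.4, 37.7 and 34.2 CPM in those labelled TRa_mKO. Its estimate was the closest to 0 of the 10 members and its interval narrow: 0.01 (SE 0.09, 95% confidence interval -0.19 to 0.21, adjusted p = 0.968), a ratio between 0.878 and 1.16.

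Asb2 is the substrate receptor of a cullin 5 ligase that targets filamins. It stood at 407, 740 and 528 CPM in the WT libraries and at 431, 651 and 428 CPM in those labelled TRa_mKO, so that replicate 2 was highest in both genotypes. A log2 fold change of -0.15 with SE 0.24 and a 95% confidence interval from -0.71 to 0.41 missed the threshold (adjusted p = 0.816) and was 0.11 without WT replicate 2. Summed over the 7 ligase genes, CPM came to 2114 ± 432 in WT and 1739 ± 315 in TRa_mKO, with overlapping libraries (1651 to 2506 and 1506 to 2097).

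**Figure D2:**
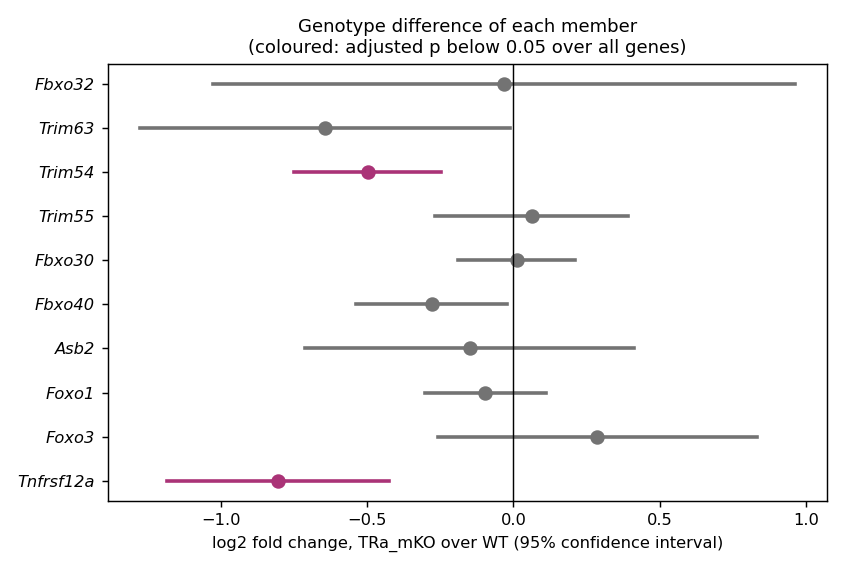
Log2 fold change of each member, TRa_mKO over WT, as a point with its 95% confidence interval; coloured members have an adjusted p below 0.05 over all genes tested. Trim54 (-0.50) and Tnfrsf12a (-0.80) are coloured, and the widest interval, that of Fbxo32, runs from -1.03 to 0.96.

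The FoxO genes were the lowest of the 10 members per length, although by CPM Foxo1 lay at the 58.2nd and Foxo3 at the 63.7th percentile of tested genes. Foxo1 stood at 27.3, 29.2 and 32.5 CPM in the WT libraries and at 27.2, 28.7 and 27.4 CPM in those labelled TRa_mKO. The groups overlapped, and the interval of its log2 fold change (-0.10, SE 0.09, adjusted p = 0.651) was -0.30 to 0.11. Foxo3, which also drives autophagy genes in muscle, stood at 22.3, 29.9 and 41.3 CPM in the WT libraries and at 31.5, 45.9 and 37.1 CPM in those labelled TRa_mKO. The lowest library was WT replicate 1 and the highest TRa_mKO replicate 2, with WT replicate 3 between the TRa_mKO libraries. A log2 fold change of 0.29 with SE 0.23 and a 95% confidence interval from -0.26 to 0.83 missed the threshold (adjusted p = 0.58); it was 0.09 to 0.55 over the alternatives.

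Tnfrsf12a encodes Fn14, a receptor that is scarce in healthy muscle, is induced on denervation and binds TWEAK to activate NF-kB. It stood at 20.7, 21.3 and 17.9 CPM in the WT libraries and at 14.9, 10.0 and 9.34 CPM in those labelled TRa_mKO, from 271 to 276 counts and 124 to 203 counts. Every TRa_mKO library was below every WT library. The fall was -0.80 on the log2 scale (SE 0.17, 95% confidence interval -1.18 to -0.43, adjusted p = 0.0294), the largest change among the 10 members. The call held without TRa_mKO replicate 1 (log2 fold change -1.04, adjusted p = 0.0034). It ended without WT replicate 1 (0.077), 2 (0.084) or 3 (0.0579), without TRa_mKO replicate 2 (0.126) or 3 (0.0727), and without both haemoglobin-rich libraries (log2 fold change -0.65, adjusted p = 0.168).

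Other cells of muscle also transcribe Tnfrsf12a. The 6 endothelial markers summed to 1037 to 1286 CPM in WT and 744 to 998 CPM in TRa_mKO, with 1 of 6 called lower (Flt1, adjusted p = 0.0116) and none at 0 in all libraries. The 5 satellite cell markers summed to 59.7 to 70.9 CPM in WT and 75.5 to 86.3 CPM in TRa_mKO, with 1 of 5 called higher (Pax7, adjusted p = 0.0261) and none at 0 in all libraries. The part of these shifts in the Tnfrsf12a result was not tested. Smooth muscle and pericyte markers summed to 1574 to 1673 CPM in WT and 1288 to 1564 CPM in TRa_mKO, with 0 of 5 called. Sums of fibroblast and tendon, adipocyte, leukocyte, Schwann cell and blood markers overlapped between the genotypes, and none of their tested markers was called by edgeR.

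**Figure D3:**
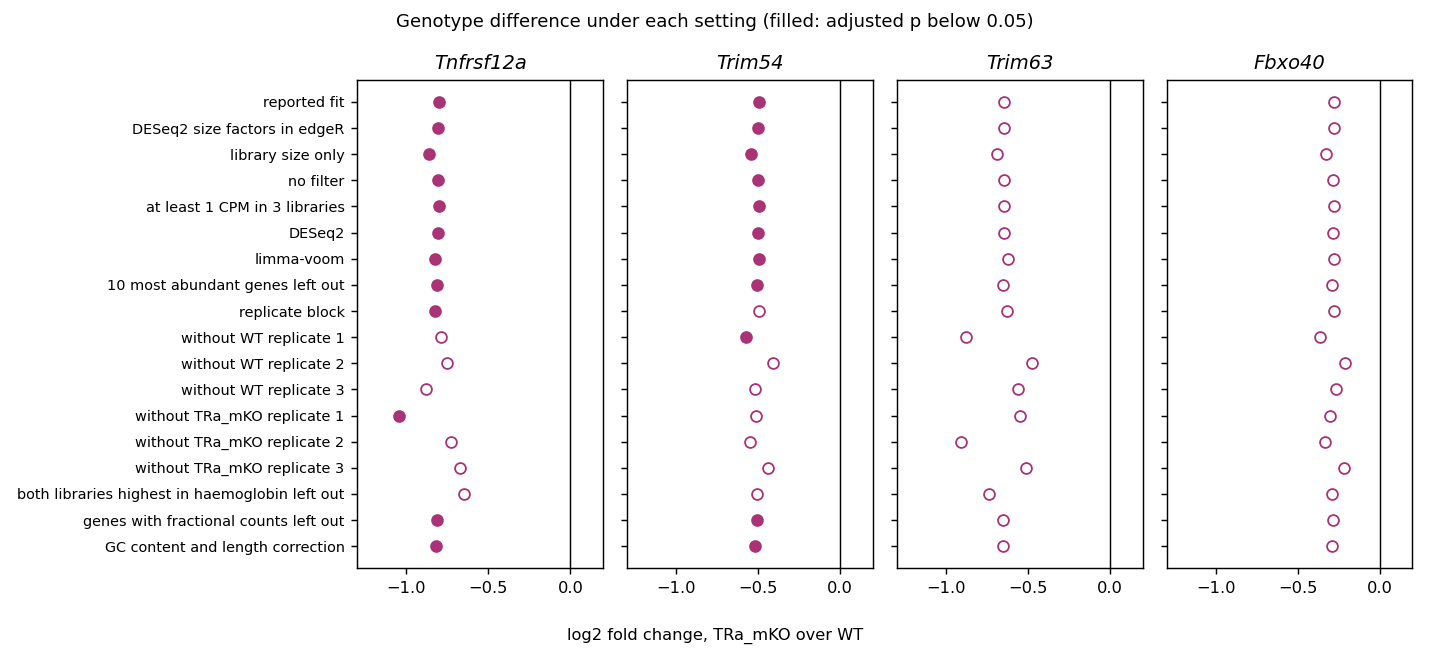
Log2 fold change, TRa_mKO over WT, of the 4 members with an unadjusted p below 0.05, in the reported fit and under 17 alternatives; filled points have an adjusted p below 0.05. All points lie below 0; Trim54 and Tnfrsf12a lose their fill mainly where a library was left out.

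Within a genotype the members differed in how far the mice spread. The biological coefficient of variation that edgeR fitted was 34.1% for Fbxo32, 23.3% for Trim63, 21.3% for Asb2 and 19.8% for Foxo3, where the trend for genes of their abundance was 10.2% to 12.7%. For Foxo1 (8.56%), Fbxo30 (8.5%), Trim54 (11.2%) and Fbxo40 (11.4%) it was below the trend, and for Trim55 (13.7%) and Tnfrsf12a (14.1%) slightly above. WT replicate 1 was the lowest WT library for 8 of the 10 members, and TRa_mKO replicate 3 the lowest TRa_mKO library for 7. These are the libraries highest in haemoglobin of each genotype. The libraries lowest in haemoglobin, WT replicate 3 and TRa_mKO replicate 1, were the lowest of their genotype for 2 and 3 members. TRa_mKO replicate 2 was the highest of its genotype for 7 members. Such counts were not made over all genes, so they have no background share beside them. Some rest on small gaps, as for Asb2 in TRa_mKO replicates 1 and 3 (431 and 428 CPM). Fbxo32 deviated from the mean of its genotype by -0.81 log2 units in WT replicate 1 and 0.57 in TRa_mKO replicate 2. The part of haemoglobin, or of any state of these mice, in this spread was not tested.

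**Figure D4:**
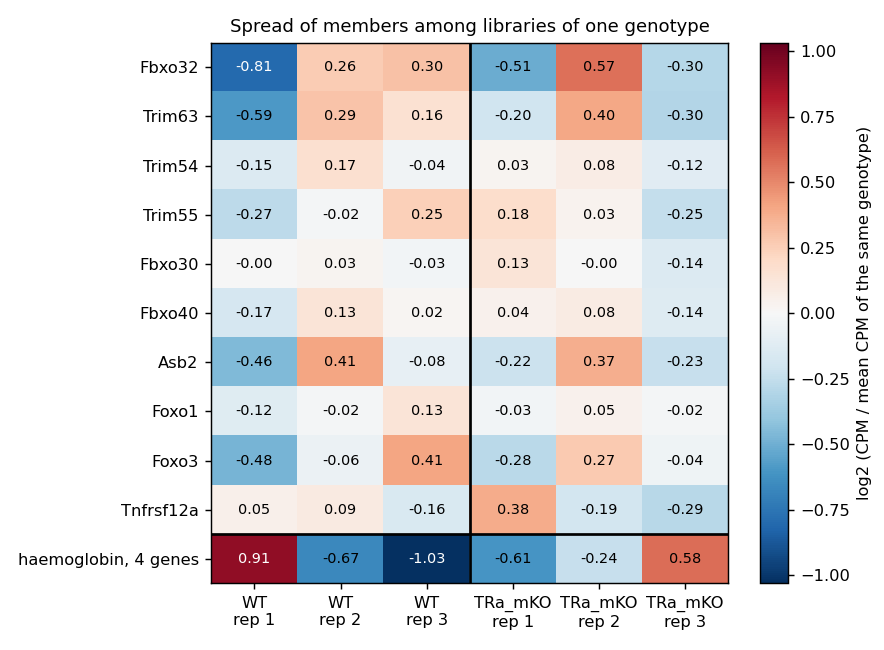
Log2 of each library's CPM over the mean CPM of its genotype, for the 10 members and the sum of 4 haemoglobin genes; the line parts WT from TRa_mKO libraries. The low values of WT replicate 1 for Fbxo32 (-0.81) and Trim63 (-0.59) stand above its haemoglobin value of 0.91. In TRa_mKO replicate 1 a low Fbxo32 value (-0.51) stands above a low haemoglobin value (-0.61).

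Genes around the members were read from 7 lists. Of all genes tested, edgeR called 2.52% higher and 1.65% lower, and 10.2% and 7.72% had an unadjusted p below 0.05. Over all genes DESeq2 called 443 higher and 297 lower, and limma-voom 311 and 197. List counts stand beside these shares. Of 24 other ligases and ubiquitin genes of muscle wasting, 1 rose and 0 fell, and the median was 0.04 on the log2 scale. Downward, DESeq2 and limma-voom called 0, and 1 of the 24 had an unadjusted p below 0.05. None of 7 cullin ligase partners was called by edgeR, DESeq2 or limma-voom, and 0 had an unadjusted p below 0.05. The smallest p there belonged to Cul5, the scaffold of the Asb2 ligase (log2 fold change -0.10, SE 0.12, adjusted p = 0.732), and the median was -0.03.

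Of 20 FoxO paralogs and upstream kinases, 2 were called lower (1.65% of all genes) and 0 higher (2.52%), with a median of -0.01. Foxo6, a paralog with low transcript levels here, stood at 8.08, 7.36 and 4.95 CPM in the WT libraries and at 3.30, 3.79 and 2.49 CPM in those labelled TRa_mKO. The groups were apart (log2 fold change -1.09, SE 0.24, adjusted p = 0.0317). Sgk1, a kinase that phosphorylates FoxO factors as Akt does, stood at 404, 400 and 338 CPM in the WT libraries and at 186, 210 and 296 CPM in those labelled TRa_mKO. Again all TRa_mKO libraries were lower (log2 fold change -0.72, SE 0.17, adjusted p = 0.0439). With a library left out, the Foxo6 call held only without WT replicate 3 (0.0217) and otherwise ended (0.0595 without TRa_mKO replicate 1, 0.0667 without replicate 2, 0.0835 without replicate 3, 0.099 without WT replicate 1 and 0.0842 without WT replicate 2). The Sgk1 call held only without TRa_mKO replicate 3 (0.00692) and otherwise ended (0.119, 0.116 and 0.0707 without WT replicates 1, 2 and 3, 0.0804 and 0.177 without TRa_mKO replicates 1 and 2). Foxo6 did not pass without both haemoglobin-rich libraries (0.208) or in limma-voom (0.0543). Sgk1 passed in both settings (0.0185 and 0.0435), but not with the replicate block (0.0906). No member of the list rose in edgeR, 1 was higher at an unadjusted p below 0.05, and DESeq2 called 1 and limma-voom 0.

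The 22 FoxO target genes outside the members held no call in either direction. At an unadjusted p below 0.05, 4 were higher and 0 lower (10.2% and 7.72% of all genes). DESeq2, which called 443 genes higher over all, called 3 higher here and limma-voom 0. Their median was 0.20. Bnip3, a mitophagy receptor, came nearest, at 366 ± 12.5 CPM in WT and 472 ± 18.5 CPM in TRa_mKO (log2 fold change 0.37, SE 0.10, adjusted p = 0.0635; 0.00321 in DESeq2, 0.038 with correction for GC content and length). Among the members known to respond to FoxO factors, the log2 fold changes of Fbxo32, Trim63 and Fbxo30 were -0.03, -0.64 and 0.01.

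The TWEAK and NF-kB list (17 genes) held no call in edgeR, DESeq2 or limma-voom, with 1 higher and 2 lower at an unadjusted p below 0.05 and a median of 0.02. Tnfsf12, the TWEAK gene and so the ligand of Tnfrsf12a, measured 20.6 ± 1.34 CPM in WT and 16 ± 3.26 CPM in TRa_mKO (log2 fold change -0.36, SE 0.14, adjusted p = 0.211); reads of Tnfsf12 are shared with other features. Nfkb2, whose reads are also shared with other features, had the smallest p (log2 fold change 0.32, SE 0.12, adjusted p = 0.179). Among 15 described substrates and binding partners edgeR called 0, with 4 higher and 1 lower at an unadjusted p below 0.05. DESeq2 called 2 higher and 1 lower and limma-voom 0, and the median was 0.08. Myod1, a substrate of atrogin-1 and a myogenic factor, had the smallest p, at 26.3 ± 3.98 CPM in WT and 16.3 ± 4.01 CPM in TRa_mKO (log2 fold change -0.69, SE 0.19, adjusted p = 0.0856; 0.0126 in DESeq2, 0.047 with correction for GC content and length).

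Of 19 tested upstream regulators of atrophy ligases, 1 was called higher (2.52% of all genes) and 1 lower (1.65%), with a median of 0.18. At an unadjusted p below 0.05, 6 were higher and 2 lower (10.2% and 7.72% of all genes). DESeq2 called 4 higher and 1 lower. Over all genes DESeq2 called more than edgeR, 443 higher and 297 lower against 331 and 216. Smad3, which carries myostatin and activin signals, stood at 104, 131 and 94.9 CPM in the WT libraries and at 66.8, 56.5 and 53.5 CPM in those labelled TRa_mKO. The groups were apart (log2 fold change -0.90, SE 0.13, adjusted p = 0.00559), and Smad3 passed under all 17 alternatives (adjusted p at most 0.0444). Hdac9, a class II histone deacetylase, stood at 15.7, 16.5 and 21.3 CPM in the WT libraries and at 28.0, 27.0 and 26.7 CPM in those labelled TRa_mKO. Its rise (log2 fold change 0.61, SE 0.12, adjusted p = 0.0221) did not pass without WT replicate 1 (0.0739) or 2 (0.0737), TRa_mKO replicate 2 (0.0862) or both haemoglobin-rich libraries (0.121), nor with library sizes alone (0.0569). Myogenin (Myog), which activates Trim63 and Fbxo32 after denervation, measured 8 ± 0.292 CPM in WT and 16.9 ± 7.81 CPM in TRa_mKO. It did not pass (adjusted p = 0.155). Its libraries were apart, but TRa_mKO replicate 1 (8.64 CPM) lay close to the highest WT library (8.32 CPM). TRa_mKO replicates 2 and 3 stood at 18 and 24.15 CPM. Mstn, the myostatin gene, was at 126 ± 40.6 and 186 ± 25.5 CPM (adjusted p = 0.283), and Klf15, a glucocorticoid target, at 58.6 ± 14.3 and 91.6 ± 21.9 CPM (adjusted p = 0.183). Tnfsf12, Myog, Mstn and Klf15 were chosen after their values were seen, and Myog, Mstn and Klf15 all leaned upward. In the same list Acvr2b leaned upward with a smaller p (log2 fold change 0.69, adjusted p = 0.106). Bmpr1a leaned downward (-0.33, adjusted p = 0.267), and neither was called.

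**Figure D5:**
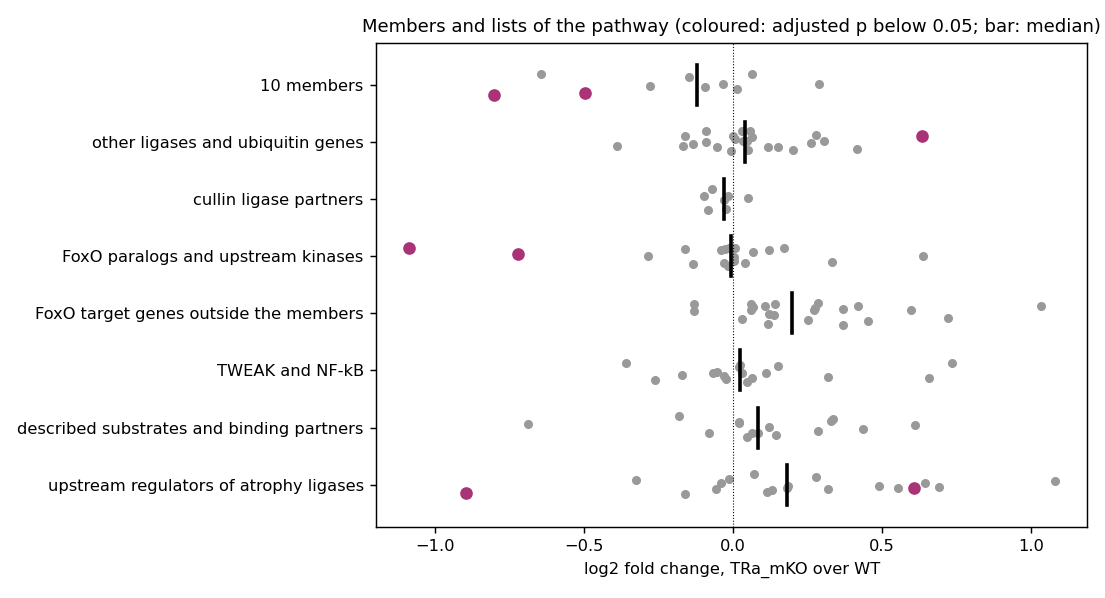
Log2 fold change, TRa_mKO over WT, of each tested gene of the 10 members and of 7 lists around them; coloured points have an adjusted p below 0.05 and the bar is the median of a list. Medians run from -0.12 for the members to 0.20 for FoxO targets outside the members.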

How the data were processed

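The deposited table holds estimated counts: per the file headers these are read counts, and the authors applied no normalization. In each library 9.65% to 10% of values were fractional, and they were rounded here. FastQC 0.11.9 and MultiQC 1.12, then Trimmomatic 0.39 and featureCounts, are named in the submitters' processing notes, beside the builds mm10, GRCm38.p6 and GRCm39 in no stated role. No aligner or strand setting is given in the sources used here. Columns were matched to libraries by the labels' descriptions, and 0 value columns were left over.

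Genes passing filterByExpr (minimum count 10) were scaled by TMM. Testing used edgeR 4.0.16 in R 4.3.3 (quasi-likelihood, two-sided, genotype alone), with Benjamini-Hochberg adjustment over all 13118 genes and a threshold of 0.05; the step was tested on simulated data. Errors are SD over 3 libraries. Alternatives used limma 3.58.1, DESeq2 1.42.0, other filters and scalings, and libraries left out. Ratio and promoter steps used Python 3.11.15. The text names all members, Thra, and of each list up to 4 called genes, or else the gene of smallest p; some of these are not reported here. Members and lists were chosen with earlier results of these data known. No set test was run, and pairing was not assumed.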

Additional observations from a re-analysis of the deposited data

How the results depend on the processing

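Over 17 alternatives for each of the 10 members, 147 of 170 values kept their direction and side of the threshold. Most of these belong to members that were not called. A further 13 kept direction but no longer passed (7 for Trim54, 6 for Tnfrsf12a), and 10 changed sign, all of members that were not called. The calls themselves held in 10 of 17 alternatives for Trim54 and 11 of 17 for Tnfrsf12a. The count of members called lower was 0 to 1 with a library left out, 0 without both haemoglobin-rich libraries and 1 with the replicate block; members called higher stayed at 0 throughout. Fits without a library have fewer samples. All genes changed numbered 547, against 209 to 595 with a library left out, 267 without both haemoglobin-rich libraries and 357 with the replicate block.

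Fbxo32, Trim55, Fbxo30 and Asb2 changed sign in some fits with a library left out. Over all fits with a library left out, log2 fold changes ran from -0.44 to 0.17 for Fbxo32 and -0.065 to 0.21 for Trim55. They ran from -0.060 to 0.080 for Fbxo30 and from -0.39 to 0.11 for Asb2. With library sizes alone Fbxo30 was at -0.042. The cause was not tested.

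Replicate numbers are shared by the genotypes. Over all tested genes, same-numbered libraries did not deviate together (correlations of deviations from the group means -0.176, 0 and -0.006). The members differed in this. With the replicate block the SE fell for Fbxo32 (0.40 to 0.19), Asb2 (0.24 to 0.13), Trim63 (0.27 to 0.17), Foxo3 (0.23 to 0.15) and Tnfrsf12a (0.17 to 0.14). It rose for Trim54, Trim55, Fbxo30, Fbxo40 and Foxo1. Whether the numbers mark a shared factor was not tested. With the replicate block Trim54 had an adjusted p of 0.09, Trim63 0.112, Sgk1 0.0906 and Tnfrsf12a 0.0292. The log2 ratio of Trim55 to Trim54 differed by 0.47 to 0.71 with a library left out and by 0.57 without both haemoglobin-rich libraries, alternatives chosen after seeing the data. Among the members, Tnfrsf12a had the fewest counts, 124 to 276 per library.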
